A study of Mus musculus with 8 samples.

Results

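The genes described here are the 10 core genes of antigen presentation by MHC class I and of the immunoproteasome: H2-K1, H2-D1, B2m, Tap1, Tap2, Tapbp, Psmb8, Psmb9, Psmb10 and Nlrc5. They were taken by symbol from the deposited expression table, in which all 10 have values, among 18835 genes with values. RNA was sequenced from hearts of 8 male BALB/cAJcl mice, 10 weeks old, in which immunization with cardiac myosin had set off autoimmune myocarditis, in which immune cells attack heart muscle. In the VEGF-C group, 4 mice had received 1 µg per day of intraperitoneal VEGF-C C156S, a VEGF-C mutant that signals through VEGFR-3, the main receptor of lymphatic vessels, from day 7 to day 10 after immunization. In the PBS group, 4 mice had received PBS on the same days. Both groups were immunized, hearts were taken in week 3, and no heart without immunization was compared here. Each library carries an animal number in the labels, but nothing says how litters or cages were spread over the groups.

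Class I molecules show peptides from inside a cell to CD8 T cells and to natural killer cells. A heavy chain (H2-K1, H2-D1) pairs with beta-2 microglobulin (B2m), and the peptide is cut by the proteasome, carried into the endoplasmic reticulum by the TAP1-TAP2 transporter and loaded with the help of tapasin (Tapbp). Interferon-gamma induces most of these genes, among them Psmb8, Psmb9 and Psmb10, whose products replace the constitutive catalytic subunits PSMB5, PSMB6 and PSMB7. NLRC5 is a transactivator that is recruited to class I promoters by factors bound at a conserved module that ends in a Y box.

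The promoter windows of 4 members are shown because the results set the heavy chains and B2m against the transporter and immunoproteasome genes. Each holds 250 bases before and 50 after the annotated start, 5′ to 3′ in the direction of the gene, from RefSeq (GRCm38.p6). These are bases of the reference genome, and those of BALB/c mice may differ. H2-K1 had a further, overlapping window that is not shown. Capitals mark the Y box core CCAAT on either strand and, in B2m, the interferon-stimulated response element core (GAAA, 2 bases of any kind, GAAA, on either strand). The windows are chr17:34000284-34000583 on the minus strand for H2-K1, chr17:35262844-35263143 on the plus strand for H2-D1, chr2:122147437-122147736 on the plus strand for B2m and chr17:34187306-34187605 on the plus strand for Tap1.
H2-K1: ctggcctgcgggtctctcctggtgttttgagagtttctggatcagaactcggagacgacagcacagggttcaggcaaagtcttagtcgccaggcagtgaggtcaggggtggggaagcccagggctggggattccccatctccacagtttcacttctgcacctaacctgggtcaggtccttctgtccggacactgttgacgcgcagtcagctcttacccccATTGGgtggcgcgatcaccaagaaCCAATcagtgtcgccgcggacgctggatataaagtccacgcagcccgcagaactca
H2-D1: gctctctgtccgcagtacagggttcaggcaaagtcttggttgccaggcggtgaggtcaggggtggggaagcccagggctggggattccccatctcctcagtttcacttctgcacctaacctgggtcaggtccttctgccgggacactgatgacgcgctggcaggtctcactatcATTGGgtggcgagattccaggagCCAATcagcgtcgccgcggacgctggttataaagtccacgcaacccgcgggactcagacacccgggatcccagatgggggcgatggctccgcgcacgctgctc
B2m: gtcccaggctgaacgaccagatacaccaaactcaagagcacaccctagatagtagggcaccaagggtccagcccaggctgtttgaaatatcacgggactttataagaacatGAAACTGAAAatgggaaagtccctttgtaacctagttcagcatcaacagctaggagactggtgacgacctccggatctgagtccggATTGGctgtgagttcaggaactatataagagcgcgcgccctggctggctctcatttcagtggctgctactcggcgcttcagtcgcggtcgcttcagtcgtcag
Tap1: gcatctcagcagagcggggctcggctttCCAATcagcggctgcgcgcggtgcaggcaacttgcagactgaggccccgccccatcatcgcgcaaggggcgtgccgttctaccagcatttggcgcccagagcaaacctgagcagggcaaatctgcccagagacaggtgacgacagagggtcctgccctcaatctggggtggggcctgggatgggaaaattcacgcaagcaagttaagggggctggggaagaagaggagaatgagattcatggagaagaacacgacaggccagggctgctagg

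The Tap1 window shares 275 bases with that of Psmb9, which lies next to it and is read from the other strand. Of the 10 genes, 8 had a window in the RefSeq table; Tap2 and Nlrc5 had none. A Y box core was found in the windows of H2-K1, H2-D1, B2m, Tapbp, Psmb9 and Tap1 (for the last pair in their shared bases), and in 37.4% of all 32851 windows. In H2-K1 and in H2-D1 it was found once on each strand. CCAAT alone does not show that the conserved module is present, which was not searched. No match is therefore read as a site of NLRC5. The interferon-gamma activated site, searched as TTC, 3 bases of any kind and GAA, which reads the same on both strands, was found in Psmb8 (TTCCCAGAA) and in 8.30% of all windows. The response element core was found in B2m and in 3.44% of all windows. Only this exact pattern was searched, so an element that departs from it would be missed, in the heavy chain windows as elsewhere. In the order of genes along chromosome 17, Psmb9, Tap1, Psmb8 and Tap2 are direct neighbours.

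Values are given as normalized counts, read back from the deposited log2 values, or as log2(normalized count + 4) where so named. Read totals over the genes with values were between 53679737 and 65230480 in VEGF-C libraries and between 61713842 and 76803952 in PBS libraries. The members had between 1072 and 95628 reads in a library. Replicate numbers are those of the table's columns and tie to no animal. The defining genes of heart muscle were abundant: the summed normalized counts of 6 cardiomyocyte markers were between 2975800 and 3215500 in VEGF-C and between 2176600 and 2961000 in PBS. The title of the series names lymphatic endothelial cells, whose 5 markers summed to between 14729 and 25406 in VEGF-C and between 12941 and 19536 in PBS, while the tissue label of all 8 samples is heart. BALB/c mice carry the H2-d haplotype and the reference genome GRCm39 the H2-b haplotype of C57BL/6. How many reads of the polymorphic heavy chains were lost or moved to near-identical neighbours by this was not tested, and their values are uncertain for that reason.

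Nlrc5, the transactivator, fell in hearts of VEGF-C-treated mice, and it was the only 1 of the 10 genes past the threshold of the test. The others had smaller fold changes, negative for 7 genes and positive for H2-D1 and B2m. The test was limma on the log2 values of all genes, with Benjamini-Hochberg adjustment over all genes and a threshold of 0.05. Of all genes, 8.61% were lower and 7.05% were higher by this test, so 1 of 10 lower and 0 of 10 higher lie near the share of all genes. At an unadjusted limma p under 0.05, Nlrc5 and Psmb9 were lower. The share of all genes at that threshold was not counted, so this is not read as a result about the 10 genes. The median log2 fold change of the 10 genes was -0.23, against 0.0013 for all genes. Without PBS replicate 1 the median of the 10 genes was -0.074. Because whole hearts were sequenced, fewer cells of a type and less RNA per cell cannot be told apart.

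Nlrc5 (ENSMUSG00000074151) had 1391, 1393, 1310 and 1656 normalized counts in VEGF-C replicates 1 to 4, against 4261, 1844, 2594 and 2794 in PBS replicates 1 to 4. All 4 VEGF-C libraries lay below all 4 PBS libraries, which was true of 11.6% of all genes and of no other of the 10. The mean was 1437 ± 151 in VEGF-C and 2873 ± 1012 in PBS (SD, n = 4 each), so the VEGF-C mean was 50.02% of the PBS mean. On the log2 scale Nlrc5 fell by 0.94 ± 0.21 (SE; fold change -0.94), with a 95% interval from -1.40 to -0.48 and a limma adjusted p of 0.0150. PBS replicate 1 held the highest value; without it the log2 fold change was -0.73 ± 0.14 and the adjusted p was 0.0102, and 8.70% of all genes were then called lower. The call was kept when any 1 of the 8 libraries was left out (limma adjusted p from 0.00494 to 0.0448) and under each other scaling tried.

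The heavy chains and B2m, the parts of the molecule that stands at the cell surface, did not pass. H2-K1 (ENSMUSG00000061232), the K heavy chain, had 51766, 39489, 42030 and 42364 normalized counts in VEGF-C replicates 1 to 4, against 45168, 42252, 57975 and 37816 in PBS replicates 1 to 4. The groups overlapped, with PBS replicate 3 highest and PBS replicate 4 lowest. The log2 fold change was -0.05 ± 0.14 (SE; 95% interval -0.36 to 0.26; limma adjusted p = 0.836), and it was 0.069 without PBS replicate 3. H2-D1 (ENSMUSG00000073411), the D heavy chain, had 73137, 60662, 66696 and 69998 normalized counts in VEGF-C, against 55757, 58533, 75750 and 56543 in PBS. In PBS, replicate 3 stood above the other 3, and its value exceeded all 4 VEGF-C values. The log2 fold change of H2-D1 was 0.14 ± 0.12 (95% interval -0.13 to 0.41; limma adjusted p = 0.448). It was 0.24 without PBS replicate 3 (limma adjusted p = 0.12) and -0.050 with library totals as the scaling.

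B2m (ENSMUSG00000060802), the light chain shared by all class I heavy chains, had 89855, 72017, 90375 and 78717 normalized counts in VEGF-C replicates 1 to 4, against 68385, 68987, 83746 and 67190 in PBS replicates 1 to 4. The mean was 82741 ± 8946 in VEGF-C and 72077 ± 7815 in PBS (SD, n = 4 each). PBS replicate 3 again stood above the other PBS libraries, and the groups overlapped through it. B2m had a log2 fold change of 0.20 ± 0.12 (SE; 95% interval -0.06 to 0.46; limma adjusted p = 0.271), and of 0.27 without PBS replicate 3 (limma adjusted p = 0.13). With library totals, which shift the median of all genes by -0.19, the log2 fold changes were 0.0070 for B2m and -0.24 for H2-K1, and only that of H2-D1 changed sign among the 3.

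**Figure D1:**
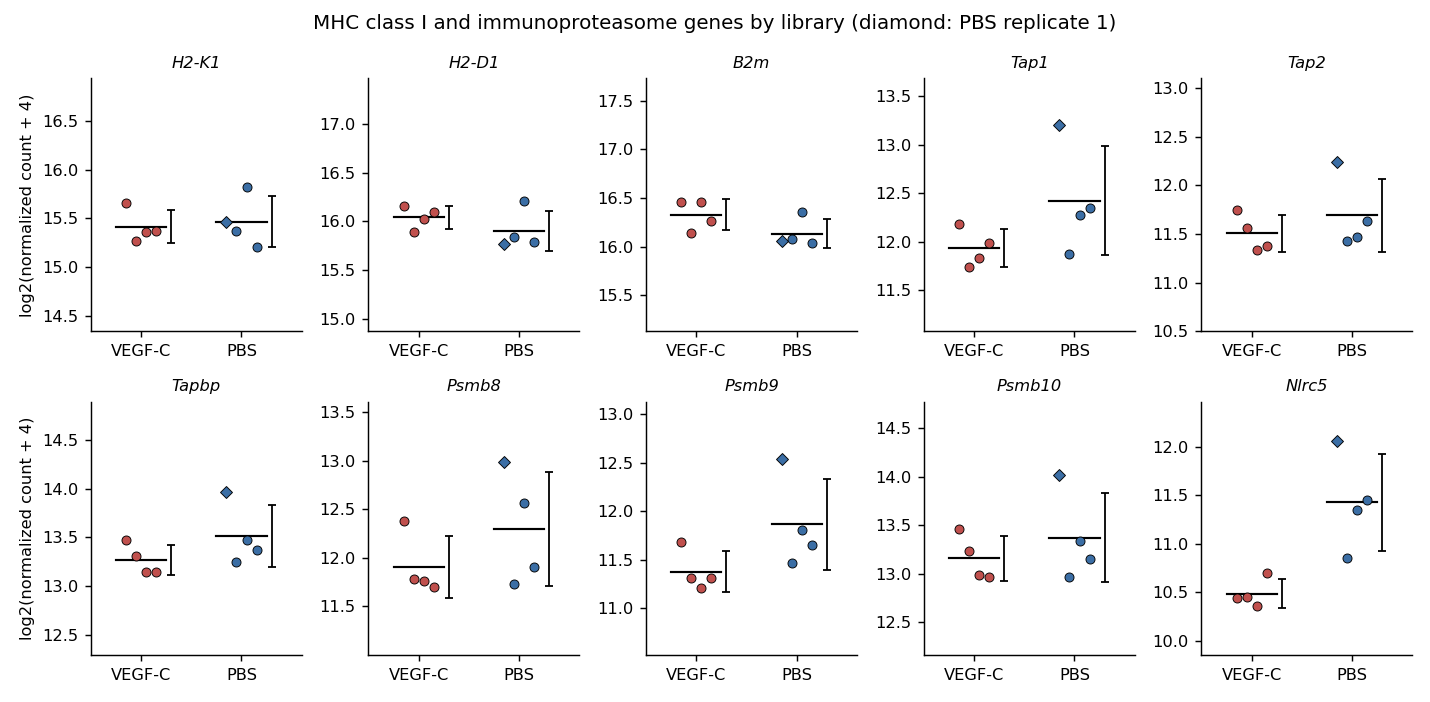
Values of the 10 genes in each library, as log2(normalized count + 4) on the vertical axis, with VEGF-C left and PBS right in each panel; points are libraries, the diamond is PBS replicate 1, the line is the mean and the bar the SD of 4 libraries, and all panels span the same log2 range. Nlrc5 is the panel without overlap, and PBS replicate 1 is the highest point in the panels of Tap1, Tap2, Tapbp, Psmb8, Psmb9, Psmb10 and Nlrc5 but not in those of H2-K1, H2-D1 and B2m.

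The transporter and tapasin genes had negative fold changes that did not pass. Tap1 (ENSMUSG00000037321) had 4662, 3424, 3640 and 4050 normalized counts in VEGF-C replicates 1 to 4, against 9441, 3753, 4950 and 5192 in PBS replicates 1 to 4. PBS replicate 1 was far above every other library, and the remaining values of the groups overlapped. Tap1 had a log2 fold change of -0.49 ± 0.23 (SE; 95% interval -1.005 to 0.03; limma adjusted p = 0.178) with it and -0.23 ± 0.13 (adjusted p = 0.270) without it. Tap2 (ENSMUSG00000024339), the partner of Tap1 in the transporter, had 3439, 3027, 2577 and 2659 normalized counts in VEGF-C, against 4836, 2753, 2830 and 3166 in PBS. Its log2 fold change was -0.19 ± 0.17 (95% interval -0.56 to 0.19; limma adjusted p = 0.488) and -0.0024 without PBS replicate 1. Tapbp (ENSMUSG00000024308), which holds an empty class I molecule beside the transporter, had 11382, 10110, 9074 and 9023 normalized counts in VEGF-C, against 16057, 9681, 11406 and 10591 in PBS. The log2 fold change of Tapbp was -0.25 ± 0.15 (95% interval -0.58 to 0.08; limma adjusted p = 0.271) and -0.10 without PBS replicate 1.

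The 3 immunoproteasome genes also had negative fold changes that did not pass, and PBS replicate 1 was their highest library. Psmb9 (ENSMUSG00000096727), which replaces PSMB6, had 3282, 2547, 2361 and 2531 normalized counts in VEGF-C replicates 1 to 4, against 5922, 2817, 3588 and 3218 in PBS replicates 1 to 4. The groups overlapped only in that VEGF-C replicate 1 lay above PBS replicates 2 and 4. Psmb9 had a log2 fold change of -0.49 ± 0.20 (SE; 95% interval -0.94 to -0.03; limma adjusted p = 0.128), and -0.26 ± 0.12 (adjusted p = 0.169) without PBS replicate 1. With library totals Psmb9 passed (log2 fold change -0.68, limma adjusted p = 0.0387), where 2 of the 10 genes and 19.0% of all genes were lower. In the authors' deposited table Psmb9 had a log2 fold change of -0.54 and an adjusted p of 0.0425, and Nlrc5 had -0.999 and 2.7e-05. In the authors' deposited table, 2 of the 10 genes and 11.4% of all genes with an adjusted p were lower.

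Psmb8 (ENSMUSG00000024338), which replaces PSMB5, had 5337, 3520, 3462 and 3323 normalized counts in VEGF-C, against 8079, 3400, 6067 and 3821 in PBS. VEGF-C replicate 1 stood above the other VEGF-C libraries, and PBS replicates 1 and 3 above the other PBS libraries. Psmb8 had a log2 fold change of -0.39 ± 0.26 (SE; 95% interval -0.97 to 0.19; limma adjusted p = 0.329), and -0.16 without PBS replicate 1. Psmb10 (ENSMUSG00000031897), which replaces PSMB7, had 11266, 9601, 8104 and 8005 normalized counts in VEGF-C, against 16602, 8024, 10353 and 9123 in PBS. Its log2 fold change was -0.21 ± 0.20 (95% interval -0.66 to 0.24; limma adjusted p = 0.511), and it was 0.0055 without PBS replicate 1.

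**Figure D2:**
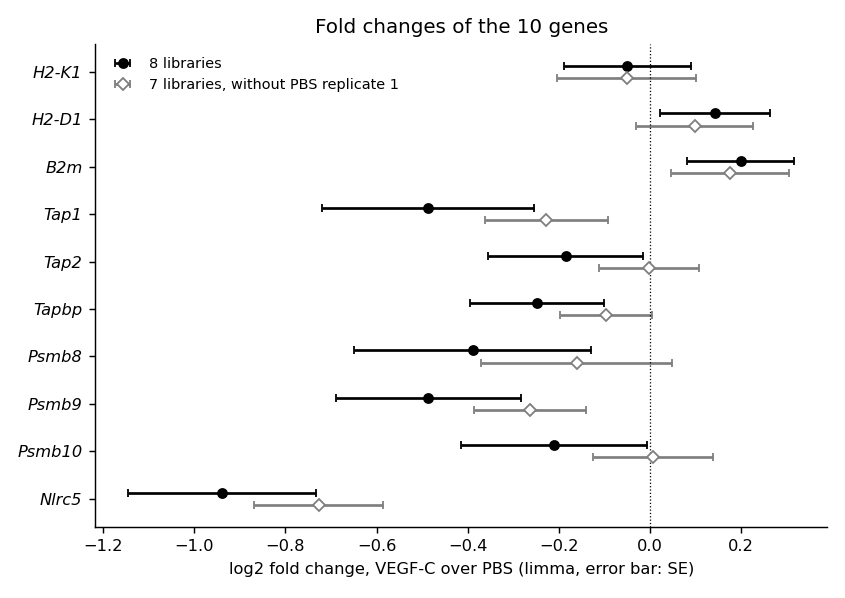
Log2 fold changes of the 10 genes, VEGF-C over PBS, on the horizontal axis, from limma with all 8 libraries (filled circles) and without PBS replicate 1 (open diamonds); error bars are SE. Nlrc5 stays apart from 0 in both fits, at -0.94 and -0.73, while Tap2 and Psmb10 move to -0.0024 and 0.0055 without PBS replicate 1.

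PBS replicate 1 split the 10 genes into 2 sets. In 7 of them (Tap1, Tap2, Tapbp, Psmb8, Psmb9, Psmb10 and Nlrc5) it was the highest of the 8 libraries, as it was in 15.4% of all genes. Its log2 value exceeded the mean of the other 3 PBS libraries by 0.61 in Tapbp, 0.73 in Tap2, 0.84 in Nlrc5, 0.86 in Psmb10, 0.89 in Psmb9, 0.91 in Psmb8 and 1.04 in Tap1. In H2-K1, H2-D1 and B2m the same difference was -0.0025, -0.18 and -0.09. Outside the 10, PBS replicate 1 was the highest library in 9 of 21 regulators of the pathway. There the difference was 0.98 in Irf1, which encodes an interferon-induced transcription factor, 1.28 in Ifng, the interferon-gamma gene, and -0.31 in Nfya. Ifng had few reads, 5 to 39 in a library. Its normalized counts were 31.7, 9.78, 24.5 and 4.05 in PBS replicates 1 to 4. The mean of Ifng was 10.9 ± 1.55 in VEGF-C and 17.5 ± 12.8 in PBS. The 10 genes took between 0.295% and 0.369% of the reads in VEGF-C libraries and between 0.320% and 0.446% in PBS libraries.

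Levels were compared between genes per kilobase of merged exon length (GENCODE M21, an annotation of another build). In VEGF-C and in PBS, B2m was highest, with 96211 ± 10402 and 83810 ± 9088 normalized counts per kilobase (SD, n = 4 each). H2-D1 followed with 26221 ± 2068 in VEGF-C and 23903 ± 3674 in PBS, and H2-K1 with 14946 ± 1835 in VEGF-C and 15590 ± 2948 in PBS. Below them came Psmb10 (5422 ± 899 in VEGF-C, 6467 ± 2251 in PBS) and Tapbp (2728 ± 306 in VEGF-C, 3289 ± 782 in PBS), and then Psmb8 (1157 ± 282 in VEGF-C, 1580 ± 641 in PBS). Tap2, Psmb9 and Tap1 did not differ from each other beyond their spread, at 774, 732 and 720 in VEGF-C and at 898, 1062 and 1065 in PBS, where the range of Psmb8 overlapped theirs. Nlrc5 was lowest, at 169 ± 18 in VEGF-C and 338 ± 119 in PBS.

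Differences between 2 genes within a library do not depend on the library's scaling, and 6 were tested with an exact two-sided permutation test over the 70 assignments of the libraries. The smallest p this design allows is 0.0286, and p-values were adjusted over the 6. The immunoproteasome subunits were set against the constitutive subunits they replace. On the log2 scale, Psmb9 minus Psmb6 was -1.49, -1.92, -1.86 and -1.68 in VEGF-C replicates 1 to 4, against -0.62, -1.48, -1.26 and -1.23 in PBS replicates 1 to 4. The groups did not overlap, and the difference of means was -0.59 (exact permutation p = 0.0286, adjusted p = 0.0857). Psmb10 minus Psmb7 averaged 1.09 ± 0.26 in VEGF-C and 1.65 ± 0.36 in PBS, a difference of -0.56 (exact permutation p = 0.0857, adjusted p = 0.103). Psmb8 minus Psmb5 averaged 0.45 ± 0.27 in VEGF-C and 0.82 ± 0.42 in PBS, a difference of -0.37 (exact permutation p = 0.171, adjusted p = 0.171). In all 3 pairs the VEGF-C mean was lower and the adjusted p missed the threshold. A difference can come from either gene of a pair. The log2 fold changes were -0.49 for Psmb9 and 0.10 for Psmb6, and -0.39 for Psmb8 and -0.02 for Psmb5. For Psmb10 and Psmb7 they were -0.21 and 0.35, so the larger part came from the constitutive subunit.

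Nlrc5 minus B2m was -6.01, -5.69, -6.10 and -5.57 in VEGF-C replicates 1 to 4, against -4.00, -5.22, -5.01 and -4.59 in PBS replicates 1 to 4. Again the groups did not overlap, with a difference of means of -1.14 (exact permutation p = 0.0286, adjusted p = 0.0857). Tap1 minus Tap2 averaged 0.43 ± 0.18 in VEGF-C and 0.73 ± 0.22 in PBS, a difference of -0.30 (exact permutation p = 0.0857, adjusted p = 0.103). H2-K1 minus B2m averaged -0.92 ± 0.13 in VEGF-C and -0.67 ± 0.13 in PBS, a difference of -0.25 (exact permutation p = 0.0571, adjusted p = 0.103). None of the 6 differences passed after adjustment, which at this size needs at least 4 of them at the smallest p.

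**Figure D3:**
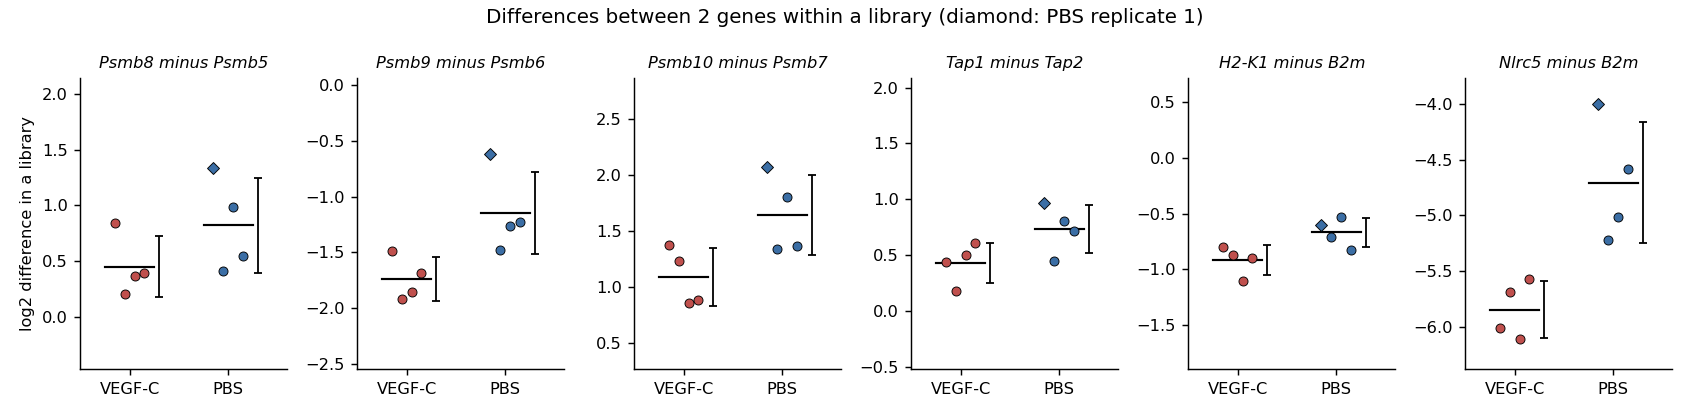
Log2 differences between 2 genes within a library on the vertical axis, VEGF-C left and PBS right in each panel; points are libraries, the diamond is PBS replicate 1, the line is the mean and the bar the SD of 4 libraries. Psmb9 minus Psmb6 and Nlrc5 minus B2m are the panels in which the VEGF-C libraries all lie below the PBS libraries.

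Among 14 other class I heavy chain genes, all non-classical or class I-like, 4 fell and 0 rose, beside 8.61% lower and 7.05% higher of all genes; 12 had negative fold changes and the median was -0.22. Cd1d1, which presents lipids to natural killer T cells, had 301, 268, 327 and 251 normalized counts in VEGF-C, against 762, 545, 504.4 and 629 in PBS (log2 fold change -1.07 ± 0.15, limma adjusted p = 0.00192). H2-M3, which presents formylated peptides, fell by 0.43 ± 0.10 (adjusted p = 0.0175); its call was lost without VEGF-C replicate 3 (0.0504). H2-T24 fell by 0.32 ± 0.08 (adjusted p = 0.0260) and lost its call without any 1 of 4 libraries, VEGF-C replicates 2 and 3 and PBS replicates 2 and 4 (adjusted p up to 0.0760). H2-T23, the Qa-1 heavy chain recognised by CD94-NKG2 receptors, fell by 0.41 ± 0.12 (adjusted p = 0.0445), and passed in only 1 of the 8 fits that leave out a library, that without PBS replicate 2 (adjusted p up to 0.115). The H2-Q and H2-T genes are near-identical in part, so reads between them are uncertain.

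Of 8 genes of peptide trimming and loading, 2 rose and 0 fell, with a median of 0.19, beside 7.05% of all genes higher and 8.61% lower. Hspa5, the endoplasmic reticulum chaperone BiP, had 31790, 28832, 37458 and 31843 normalized counts in VEGF-C, against 27148, 24565, 24741 and 26686 in PBS (log2 fold change 0.33 ± 0.09, limma adjusted p = 0.0395). Pdia3, the thiol oxidoreductase ERp57 of the loading complex, rose by 0.25 ± 0.08 (adjusted p = 0.0489). Both calls were lost with upper-quartile factors (0.0694 and 0.12) and library totals (0.312 and 0.633), and that of Pdia3 also with TMM factors (0.0547), limma-voom (0.0533) and a robust fit (0.0585). The call of Hspa5 was kept only without VEGF-C replicate 2 or PBS replicate 1, and that of Pdia3 only without PBS replicate 3 (adjusted p up to 0.103 and 0.135). Calreticulin (Calr) had a log2 fold change of 0.32 ± 0.11 (adjusted p = 0.0682), the tapasin relative Tapbpl of -0.31 ± 0.16 (0.203), and the trimming peptidase Erap1 of 0.0094 ± 0.14 (0.972). Calr passed as higher in the authors' deposited table (adjusted p = 0.0212), and Tapbpl as lower with library totals (limma adjusted p = 0.0369).

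Of 9 listed proteasome partners 8 had values, and 2 rose and 0 fell, beside 7.05% of all genes higher and 8.61% lower; Psmb11, a subunit of the thymus, had none. Psme3, the PA28-gamma activator of the nucleus, had 4840, 4880, 4943 and 4919 normalized counts in VEGF-C, against 4123, 4030, 3443 and 3619 in PBS (log2 fold change 0.37 ± 0.07, limma adjusted p = 0.00993). Psmb7, the constitutive subunit that Psmb10 replaces, rose by 0.35 ± 0.09 (adjusted p = 0.0305), and lost its call without VEGF-C replicate 1, 3 or 4 or PBS replicate 2 or 3 (adjusted p up to 0.0828). Neither passed with library totals (0.0975 and 0.207). The interferon-induced activators Psme1 and Psme2 had log2 fold changes of 0.0076 ± 0.14 and -0.22 ± 0.18 and did not pass (0.978 and 0.413). Without PBS replicate 1 a further activator, Psme4, passed as higher (log2 fold change 0.29, adjusted p = 0.0350).

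Of 21 regulators of the pathway, 2 fell and 1 rose, with a median of 0.04; these counts lie near the 8.61% lower and 7.05% higher of all genes. Rfx5, a subunit of the RFX complex that binds the conserved module of class I and class II promoters, had 297, 281, 339 and 376 normalized counts in VEGF-C, against 517, 525, 425 and 500 in PBS (log2 fold change -0.60 ± 0.13, limma adjusted p = 0.0127). Its call was kept when any 1 library was left out (adjusted p up to 0.0371). Stat2, of type I interferon signalling, fell by 0.45 ± 0.12 (adjusted p = 0.0263) and lost its call without VEGF-C replicate 1, 2 or 3 or PBS replicate 4 (up to 0.0713). Irf2, a factor that binds the same elements as IRF1, rose by 0.31 ± 0.07 (adjusted p = 0.0198), but not with library totals (0.237) nor without VEGF-C replicate 2 or 3 (up to 0.0535). Irf1 averaged 2921 ± 169 in VEGF-C and 4737 ± 1931 in PBS without overlap, and did not pass (log2 fold change -0.62 ± 0.22, adjusted p = 0.0801). It passed as lower with library totals (limma adjusted p = 0.0219) and in the authors' deposited table (adjusted p = 0.00905). There 19.0% and 11.4% of all genes were lower. Ciita, the relative of NLRC5 that acts on class II genes, had a log2 fold change of -0.62 ± 0.25 (adjusted p = 0.122).

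Of 9 receptors of cells that read class I molecules, with relatives, 2 fell and 0 rose, with a median of -0.42, beside 8.61% lower and 7.05% higher of all genes. Lilrb4a, an inhibitory receptor of myeloid cells and mast cells (gp49B), had 373, 335, 379 and 487 normalized counts in VEGF-C, against 2526, 1110, 1809 and 1566 in PBS (log2 fold change -2.10 ± 0.22, limma adjusted p = 0.00043). Pirb, an inhibitory receptor that binds class I molecules on B cells and myeloid cells, fell by 0.68 ± 0.15 (adjusted p = 0.0148). Both kept their call when any 1 library was left out (adjusted p up to 0.00262 and 0.0427). The CD8 chains Cd8a and Cd8b1 were low, with means of 96.0 ± 73.8 and 80.8 ± 32.1 normalized counts in VEGF-C, against 79.3 ± 30.8 and 94.9 ± 15.3 in PBS, and did not pass (adjusted p = 0.956 and 0.502).

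**Figure D4:**
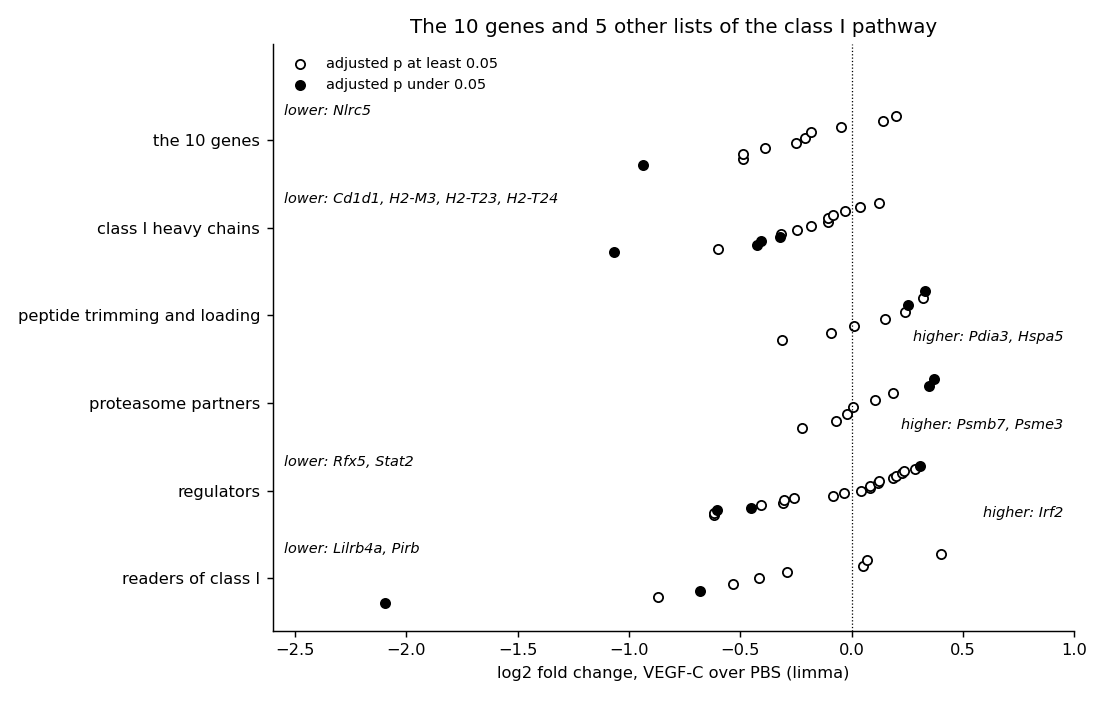
Log2 fold changes, VEGF-C over PBS, on the horizontal axis for the 10 genes and for 5 other lists of the pathway; each point is a gene, filled where the limma adjusted p is under 0.05, with those genes named. Filled points lie left of 0 among the 10 genes, the other heavy chains and the receptors, right of 0 among the loading genes and proteasome partners, and on both sides among the regulators.

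Some markers of several cell types passed the threshold, beside 8.61% lower and 7.05% higher of all genes. A single call in a list of 4 or 5 markers is not read as a result about that cell type. PBS replicate 1 was the highest library in the sums of the leukocyte and dendritic cell markers but not in those of the other lists. Of 3 general leukocyte markers 2 fell, Ptprc (log2 fold change -0.66 ± 0.16, limma adjusted p = 0.0229) and Coro1a (-0.63 ± 0.14, 0.0173). The call of Ptprc was lost without VEGF-C replicate 2 or 3 or PBS replicate 3, and that of Coro1a without VEGF-C replicate 3 (adjusted p up to 0.0575 and 0.0529). Their summed normalized counts, Laptm5 included, were between 17959 and 22615 in VEGF-C and between 18534 and 28710 in PBS, with PBS replicate 1 highest. Of 4 B cell markers 3 fell, and their sum was between 438 and 1469 in VEGF-C, below the 1981 to 3536 in PBS. When VEGF-C replicate 3 was left out Cd79a and Cd79b no longer passed, and Cd79b also failed without PBS replicate 2 (adjusted p up to 0.0526 and 0.0574). Of 4 neutrophil markers 1 fell, Csf3r, with a sum between 9857 and 30480 in VEGF-C and between 15149 and 39213 in PBS, where PBS replicate 1 was lowest. The call of Csf3r was lost in 5 of the 8 fits without 1 library, those without VEGF-C replicate 1, 2, 3 or 4 and that without PBS replicate 3 (adjusted p up to 0.0839), and with the robust fit (0.0538). Of 8 T cell markers (3066 to 4082 in VEGF-C, 2982 to 4254 in PBS), 6 macrophage markers (37863 to 46151 in VEGF-C, 40255 to 47320 in PBS) and 5 dendritic cell markers (1716 to 2272 in VEGF-C, 2148 to 2712 in PBS), 0 passed. Of 5 fibroblast markers 1 passed, Col1a1, as higher, and 2 had negative fold changes. The median log2 fold change was 0.096, against -0.0011 without PBS replicate 1 and -0.095 with library totals. The sum of the 5 markers was between 450360 and 527030 in VEGF-C, above the 298560 to 415990 in PBS, where PBS replicate 1 was lowest. Of 5 blood endothelial markers (67885 to 81272 in VEGF-C, 66726 to 78892 in PBS) 1 passed, Egfl7, as lower. Of the 5 lymphatic markers 1 passed, Flt4, the gene of VEGFR-3, as higher (log2 fold change 0.40, adjusted p = 0.0481), and it did so in only 2 of the 8 fits without 1 library, those without VEGF-C replicate 4 and PBS replicate 3 (adjusted p up to 0.118). The call of Flt4 was also lost with upper-quartile factors (0.0968), TMM factors (0.051), library totals (0.267) and limma-voom (0.0519). The sums of 6 cardiomyocyte markers, given above, were also higher in every VEGF-C library than in any PBS library, with 0 markers past the threshold. The lowest VEGF-C sum, 2975800, lay close to the highest PBS sum, 2961000. The median log2 fold change of these markers was 0.20, and 0.0061 with library totals, so the separation depends on the scaling. No marker of these lists was at 0 in any library. The part of cell numbers in the fall of Nlrc5 was not tested.

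Among 12246 genes with a mean log2 value of at least 8 that are in none of the lists, 5 were named as most like the mean profile of the 10 genes. Likeness was the root mean square difference between centred log2 values over the 8 libraries. They were Ppfia4 (0.0534), Ifi30 (0.0621), Lcp1 (0.0662), Fgd3 (0.0819) and B4galnt1 (0.0901). Ifi30 encodes an interferon-gamma-inducible thiol reductase of antigen-processing compartments, and Lcp1 the actin-bundling protein L-plastin of leukocytes. Since they were chosen for matching a profile that is highest in PBS replicate 1, their values are a description only (log2 fold changes from -0.40 to -0.20, limma adjusted p from 0.0770 to 0.382). Of the 10 genes themselves, Tapbp lay closest to the mean profile (0.0636) and Nlrc5 farthest from it (0.388).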

How the data were processed

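RNA from 8 hearts, with a RIN above 8.0 per the labels' protocols, was sequenced from stranded mRNA libraries. The submitters' processing notes name DESeq2 1.38.3, Subread 2.0.1 with featureCounts, STAR 2.7.10a, Trim Galore 0.6.10 and the build GRCm39. Annotation, strand setting and low-value filter were not given in the sources used here. Log2 values were deposited by the authors for 18835 of 56941 genes, beside a log2 fold change and adjusted p-value of their own. Read back from the values, each deposited log2 value is log2(x + 4), where x is a whole number of reads divided by 1 factor per library: in every library 100% of values came out whole within 0.01 reads below 10000 reads, and the factors equalled median-of-ratios factors (ratio 1). Column names give a group and a number, and the group of each column was taken from its name. The treatment labels of the samples give the same groups, PBS and VEGF-C.

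limma 3.58.1 (R 4.3.3), with 1 factor, a mean-variance trend and 6 residual degrees of freedom, was fitted to the log2 values of all genes and tested on simulated data. A fold change on this scale understates that of genes with few reads; the members have at least 1072. Members and lists were chosen with earlier results of these data known. The 10 members are named by rule. Of each pathway list, genes past the threshold and the 2 with the smallest p-value were to be named. Others (Calr, Tapbpl, Erap1, Psme1, Psme2, Psme4, Irf1, Ciita, Ifng, Nfya, Cd8a, Cd8b1 and the markers) were named after their values were seen. Depth was 53679737 to 76803952 reads per library. Alternatives (scaling, pseudocount 1, a mean count of at least 10, limma-voom, a robust fit, leaving out each library, the authors' p-values) are in the closing section.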

Additional observations from a re-analysis of the deposited data

Results flagged for a closer look

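Within groups of 4 libraries, 58 sets of values were examined for a library far from the others, with Dixon's criterion, which marks about 1 in 20 groups by chance; 3 were marked. PBS replicate 3 had a log2 value of 16.209 in H2-D1, against 15.767 to 15.837 in the other PBS libraries. It also had 16.354 in B2m, against 16.036 to 16.074. VEGF-C replicate 1 had 12.383 in Psmb8, against 11.700 to 11.783 in the other VEGF-C libraries. PBS replicate 1, the highest library in 7 of the 10 genes, was not marked in any of them.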

How the results depend on the processing

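Nlrc5 kept its call under every alternative run. The number of the 10 genes called lower, 1, was 2 with library totals and 2 in the authors' deposited table, and 1 in each fit without 1 library; the number called higher was 0 throughout. Of the 160 repeats of the fold changes of the 10 genes, 155 kept direction and side of the threshold, and 2, both of Psmb9, passed only in the alternative. Signs changed in 3: H2-D1 with library totals (-0.050), H2-K1 without PBS replicate 3 (0.069; range without 1 library -0.14 to 0.069) and Psmb10 without PBS replicate 1 (0.0055; range -0.34 to 0.0055). The median of the 10 genes lay between -0.34 (without PBS replicate 2) and -0.07 (without PBS replicate 1) over the fits without 1 library. For these same fits, the count lower among other heavy chains (4) was 1 to 3, the count higher among loading genes (2) was 0 to 1 and among proteasome partners (2) 1 to 3, the counts of regulators lower (2) and higher (1) were 1 to 2 and 0 to 1, and the count lower among receptors (2) was 2 to 4. With library totals 2 loading genes were lower and 0 higher, 0 proteasome partners were higher, 5 regulators were lower and 0 higher; loading genes higher were 0 with upper-quartile factors and 1 each with TMM factors, limma-voom and the robust fit. Over all genes, 3572 were lower and 243 higher with library totals, 797 were higher with upper-quartile factors, and the number higher was 591 to 1268 and lower 1093 to 1638 without 1 library. The cause of these changes was not tested. The 6 within-library differences kept their direction with a pseudocount of 1 and without any 1 library; their adjusted p (0.0571 to 0.371) says nothing about stability, since a design of this size could pass only with at least 4 of the 6 at the smallest p. No paired analysis was possible because the column numbers tie to no animal and no animal number of the labels occurs in both groups.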
